A study of Mus musculus with 15 samples.

Results

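Colon tissue of mice given DSS, immune checkpoint blockade (ICB) and F. prausnitzii by gavage was compared with colon tissue of mice given DSS alone. The comparison takes its members from the treatment labels: 5 libraries labelled with all 3 treatments (DSS_ICB_Fp) and 5 labelled DSS, 10 of the 15 RNA sequencing libraries in the series, 1 library per mouse. DSS (dextran sulfate sodium) is a polymer that injures the colon lining, and every mouse in the series received it, so no group shows the colon without DSS. The remaining 5 mice had DSS and ICB with no bacterium (DSS_ICB), and their values are given beside the main ones without entering the fit. The labels give no antibody, DSS dose, strain, age, sex, cage, control antibody or control gavage. Because DSS_ICB_Fp mice differ from DSS mice by the blockade and the gavage at once, the effects of each cannot be told apart in this comparison. It addresses how far the colon of mice with both added treatments lies from that of mice with DSS only.

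Checkpoint blockade releases T cells from receptors such as PD-1 and CTLA-4, and colitis is a known adverse effect of it. F. prausnitzii is a common gut bacterium that makes butyrate, a short-chain fatty acid that colonocytes burn as fuel. When the colon lining is injured, neutrophils and monocytes enter the tissue, crypt cells divide and part of the epithelium takes on a fetal-like repair state, while genes of mature colonocytes and goblet cells are often low until the lining is restored.

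Expression is given as FPKM, a unit that corrects fragment numbers for transcript length and library depth. Differences are given as log2 differences, the mean of log2(FPKM + 1) in DSS_ICB_Fp minus that in DSS, a scale on which the folds of weakly expressed genes come out too small. Of 55335 genes in the files, 14385 had at least 1 FPKM in at least 5 of the 15 libraries and were tested with limma, a linear model that shares information on the spread between genes. The threshold for passing was an adjusted p under 0.05 (Benjamini-Hochberg, over all genes tested). The labels do not say how the mice of a group were housed, so p-values measure only the spread between these samples.

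The 10 libraries had between 13243 and 14085 genes with at least 1 FPKM. Markers of colon tissue were present in each of them, with Epcam of the epithelium at 525 to 660 FPKM and Myh11 of smooth muscle at 144 to 435 FPKM, and Cd3e of T cells was low, at 0.224 to 0.937 FPKM. The median rank correlation between libraries was 0.95 within DSS, 0.940 within DSS_ICB_Fp and 0.938 between the groups, and the pair most alike was DSS 5 with DSS_ICB_Fp 3 (0.971). The first 3 principal components held 23.1%, 17.7% and 17.5% of the variance, and none separated the groups (exact two-sided permutation p = 0.238, 0.468 and 0.230, adjusted 0.357, 0.468 and 0.357, smallest possible 0.00794). On the first component DSS_ICB_Fp 4 and DSS_ICB_Fp 5 lay at opposite ends, at -28.1 and 40.4, with the DSS mice between -19.1 and 5.00. DSS_ICB_Fp 4 stood apart from its group in many genes below, so values without it are given beside the results that rest on it. It was singled out by these same values, so p-values without it are no independent test.

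No gene passed. Of 14385 genes, 0 had an adjusted p under 0.05 (0% called, smallest adjusted p = 0.923, limma), and 632 had an unadjusted p under 0.05, of which 274 were higher in DSS_ICB_Fp (1.9% of all tested) and 358 lower (2.49%). These 632 genes are a smaller share of the 14385 than the 0.05 expected if no gene differed. The balance between higher and lower genes moved with the scaling of the libraries. It was 373 higher and 306 lower with median-of-ratios scaling, and 399 and 314 with quantile normalization. Rescaling without mitochondrially encoded genes gave 193 and 436. Over all genes tested the median log2 difference was -0.01, and 52.9% of genes lay below 0. All 5 DSS_ICB_Fp mice lay above all 5 DSS mice in 28 genes (0.195%) and below them in 28 (0.195%). With upper-quartile scaling the counts were 21 and 39. If group labels were dealt at random, a gene would separate the groups fully, in either direction, with a probability of 0.00794. Both shares together lie below that, so lack of overlap in the genes named below is given as a description only. Without DSS_ICB_Fp 4, 1 gene passed (0.00695%), S100a8, and 594 genes were higher (4.13%) and 873 lower (6.07%) at an unadjusted p under 0.05. Without DSS_ICB_Fp 1, 1 gene passed, Lpp. Over the 10 fits that leave out 1 mouse, 1.08% to 4.13% of all genes were higher and 1.2% to 6.07% lower at that level, so counts of list members from those fits are read against these shares.

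The size of differences that the data still allow can be read from the 95% intervals. For 13528 genes (94.0%) the interval of the log2 difference lay within -1 to 1, a change of 2-fold in either direction on the scale used, and for 857 genes it reached further. The median half-width was 0.32. Only 68 genes had a log2 difference beyond 1 in size, 19 of them higher and 49 lower.

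The gene groups leaned in different directions, with immune, cell cycle and repair genes mostly below 0 and genes of mature epithelium mostly above it, while 0 members of any list passed. In the plot of list members, the lowest medians of the lists shown were those of B cells and follicles, MHC class II and the cell cycle, and the highest was that of the carboxylesterase family. List counts include tested members that reached the filter only through the DSS_ICB mice. In whole tissue, fewer cells of a type and less RNA per cell cannot be told apart.

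**Figure D1:**
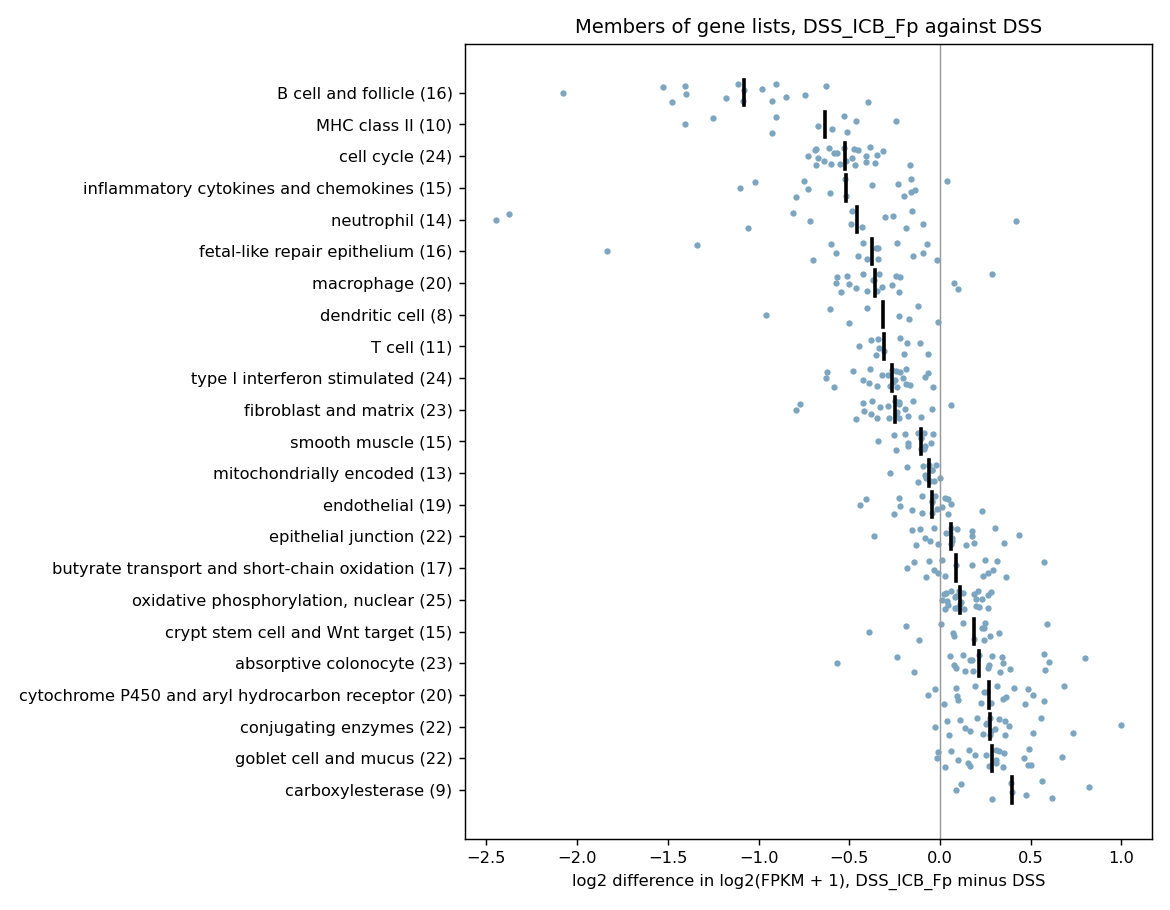
Each point is 1 tested gene of the list named at the left (number tested in brackets), placed by its log2 difference, DSS_ICB_Fp minus DSS, on the log2(FPKM + 1) scale, and the black bar is the list's median. List medians run from -1.08 for B cell and follicle genes to 0.40 for carboxylesterase genes, and no single gene passed the test.

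Neutrophil genes were the first group of interest, since these cells are among the first to enter an injured colon. S100a8 and S100a9 encode the subunits of calprotectin, a protein abundant in neutrophils and used as a stool marker of gut inflammation, and Retnlg encodes a resistin-like protein made by neutrophils. They lie on mouse build GRCm38: S100a8 (ENSMUSG00000056054) on chromosome 3 from 90668978 to 90670035 on the forward strand, S100a9 (ENSMUSG00000056071) on chromosome 3 from 90692632 to 90695721 on the reverse strand, and Retnlg (ENSMUSG00000022651) on chromosome 16 from 48872621 to 48874496 on the forward strand. Their RefSeq promoters (GRCm38.p6) are shown because these 3 genes had the lowest log2 differences of the neutrophil list. Each window holds the 250 bases before the RefSeq start, written 5′ to 3′ on the gene's strand. The RefSeq starts of S100a8 and Retnlg differ from the gene starts given above. The S100a8 window, with 1 of its marked matches, runs into the gene as placed there. Capitals mark matches, on either strand, to TTGCNNAA, a core of sites bound by C/EBP factors of myeloid cells, or to GAGGAA, a core of sites bound by PU.1.
S100a8, chr3:90668821-90669070, forward strand: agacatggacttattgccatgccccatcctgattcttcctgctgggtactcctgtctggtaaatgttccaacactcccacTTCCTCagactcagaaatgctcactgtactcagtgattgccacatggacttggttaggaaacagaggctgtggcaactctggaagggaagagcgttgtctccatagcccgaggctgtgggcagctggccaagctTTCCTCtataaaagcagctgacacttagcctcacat
S100a9, chr3:90695722-90695971, reverse strand: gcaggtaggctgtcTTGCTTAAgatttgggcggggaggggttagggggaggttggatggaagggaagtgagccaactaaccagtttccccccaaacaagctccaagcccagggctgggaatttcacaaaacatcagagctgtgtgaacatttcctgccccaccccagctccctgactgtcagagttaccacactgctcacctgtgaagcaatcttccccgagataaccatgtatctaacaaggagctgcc
Retnlg, chr16:48872358-48872607, forward strand: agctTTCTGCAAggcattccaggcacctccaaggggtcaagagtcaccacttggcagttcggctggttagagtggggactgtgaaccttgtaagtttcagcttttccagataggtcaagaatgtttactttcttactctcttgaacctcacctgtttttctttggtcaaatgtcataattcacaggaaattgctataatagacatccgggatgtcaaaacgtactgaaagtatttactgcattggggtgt
The S100a8 window held 2 matches to GAGGAA, and the S100a9 and Retnlg windows held 1 match each to TTGCNNAA. Of 32851 RefSeq promoter windows of this length, 9.56% held TTGCNNAA and 23.25% held GAGGAA, so such matches are common.

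S100a8 was 15.9, 10.1, 4.22, 11.8 and 6.80 FPKM in DSS mice 1 to 5, and 0.389, 0, 0.812, 9.30 and 0 FPKM in DSS_ICB_Fp mice 1 to 5. All DSS mice lay above 4 of the 5 DSS_ICB_Fp mice, and DSS_ICB_Fp 4 lay within the DSS range. The means were 9.76 ± 4.51 and 2.10 ± 4.04 FPKM (SD, n = 5), a log2 difference of -2.38 ± 0.64 (SE, limma adjusted p = 0.923). Without DSS_ICB_Fp 4 it was -2.98 with a limma adjusted p = 0.0414, the only gene to pass there. That mouse stood apart in S100a8 itself, so this p is no independent test. S100a9 was 30.7, 22.7, 7.80, 18.1 and 12.6 FPKM in DSS and 1.67, 0.833, 3.23, 16.3 and 0 FPKM in DSS_ICB_Fp, with the same mouse high. Its log2 difference was -2.44 ± 0.71 (SE), and -3.05 without DSS_ICB_Fp 4.

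Retnlg showed no overlap between the groups, with 4.62, 3.48, 4.01, 3.16 and 4.49 FPKM in DSS and 0.875, 0.505, 2.69, 2.57 and 0.990 FPKM in DSS_ICB_Fp. The log2 difference was -1.06 ± 0.24 (SE, limma adjusted p = 0.923). Csf3r, the receptor for the growth factor G-CSF on neutrophils, did not overlap either, at 1.54 to 2.58 FPKM in DSS and 0.183 to 1.41 FPKM in DSS_ICB_Fp, a log2 difference of -0.81 ± 0.20 (SE). In both genes DSS_ICB_Fp 3 and DSS_ICB_Fp 4 were the mice nearest to the DSS group.

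Of 25 neutrophil genes, 14 were tested and 13 of those lay below 0, with a median of -0.46, 0 that passed and 7 lower at an unadjusted limma p under 0.05, against 2.49% of all genes. Without DSS_ICB_Fp 4 the median was -0.55, with 12 of 14 below 0 and 9 lower at that level, against 6.07% of all genes. Members differed among themselves. Ly6g, used as a surface marker of neutrophils, was 97.3 to 207 FPKM in DSS and 109 to 187 FPKM in DSS_ICB_Fp, and Cd177, another surface protein of these cells, 19.1 to 70.7 and 18.1 to 98.9 FPKM, levels far above those of S100a8 with a wide overlap of the groups. Which cells these Ly6g and Cd177 reads came from was not tested, so the overlap cannot be read as equal neutrophil content. Granule genes of immature neutrophils were at or near 0 in all 10 mice, with Elane and Ngp listed at 0 in each, Mpo at most 0.0518 FPKM and Camp at most 0.152 FPKM.

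**Figure D2:**
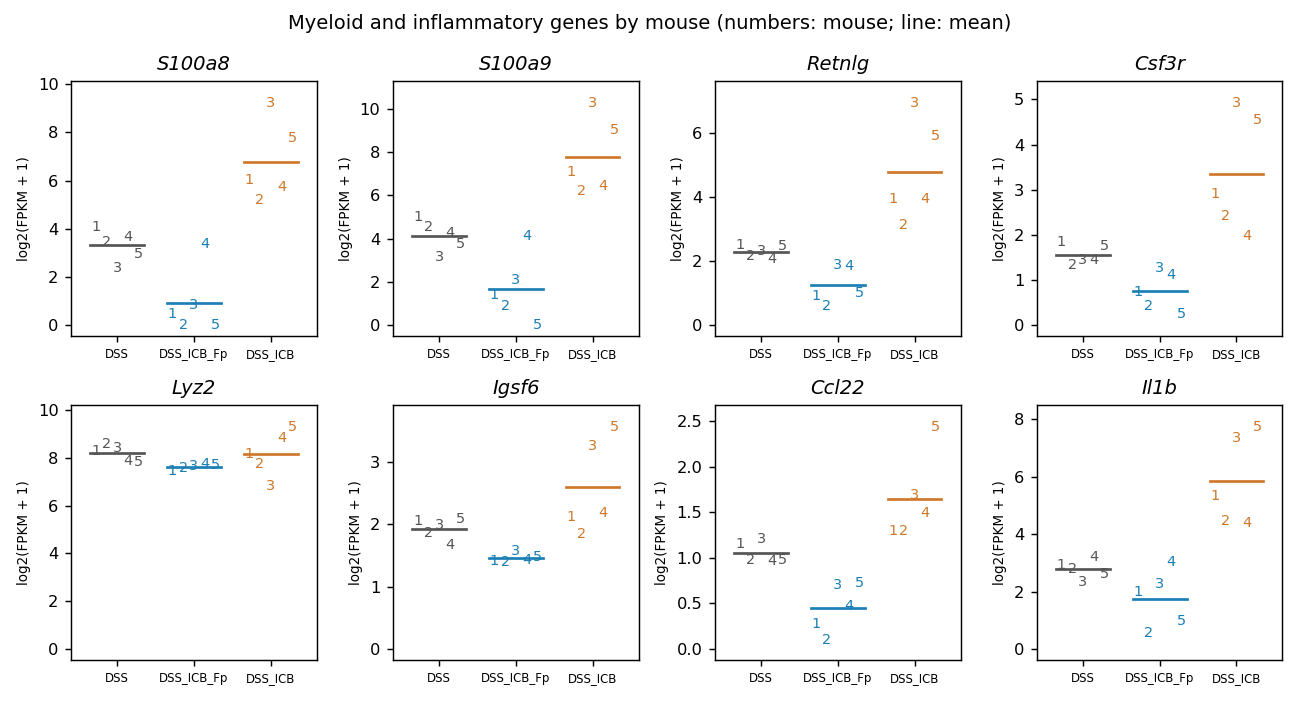
Expression of 8 myeloid and inflammatory genes as log2(FPKM + 1), with each digit placed at the value of the mouse of that number and a line at the group mean, for DSS, DSS_ICB_Fp and DSS_ICB (5 mice each). DSS_ICB_Fp 4 sits among the DSS mice for S100a8 and S100a9, while for Retnlg, Csf3r, Lyz2, Igsf6 and Ccl22 all DSS_ICB_Fp mice lie below all DSS mice.

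Inflammatory cytokine and chemokine genes had low levels in both groups. Il1b, a central cytokine of innate inflammation, was 6.67, 5.91, 4.02, 8.20 and 5.15 FPKM in DSS and 2.98, 0.462, 3.74, 7.11 and 0.963 FPKM in DSS_ICB_Fp, a log2 difference of -1.02 ± 0.41 (SE). Here too DSS_ICB_Fp 4 was the only mouse of its group inside the DSS range. Cxcl2, an attractant of neutrophils, was 0.790 to 2.28 FPKM in DSS, and 0.0902, 0.204, 0.112, 1.48 and 0.0262 FPKM in DSS_ICB_Fp, a log2 difference of -0.79 ± 0.26 (SE), or -1.03 without DSS_ICB_Fp 4. Ccl3, a chemokine for monocytes, was listed at 0 in DSS_ICB_Fp 1 and 5 and was 0.662 to 1.39 FPKM in DSS. The filter also counts the DSS_ICB mice, and Cxcl2 and Ccl3 were tested only because of their levels there. Both are part of the list totals that follow, and totals without them are not given. Tnf, an early inflammatory cytokine, was 2.49 ± 1.01 and 1.41 ± 0.597 FPKM (SD, n = 5), with overlapping groups. Of 23 genes in the list 15 were tested, 14 lay below 0, 4 were lower at an unadjusted limma p under 0.05 (2.49% of all genes) and 0 passed, with a median of -0.52. Without DSS_ICB_Fp 4 all 15 lay below 0, 8 were lower at that level (6.07% of all genes) and the median was -0.59. Without DSS_ICB_Fp 5 the median was -0.29 with 2 lower (2.93%), and 2 were lower without DSS 1 (1.2%) or DSS_ICB_Fp 2 (1.74%).

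Saa3, an acute-phase serum amyloid, had a difference near 0. It was 0.616 ± 0.687 FPKM in DSS and 0.593 ± 0.592 FPKM in DSS_ICB_Fp (SD, n = 5), a log2 difference of -0.01 with a 95% interval of -0.63 to 0.62, while the DSS_ICB mice had a median of 11.7 FPKM (5.09 to 31.5). Il11, a cytokine of stromal cells, was 0.221 to 1.22 FPKM in DSS and 0.108 to 0.770 FPKM in DSS_ICB_Fp, and 1.65 to 10.5 FPKM in DSS_ICB. Saa3 and Il11 reached the filter of 1 FPKM in 5 libraries only through the DSS_ICB mice, so their higher level there is no separate result. Mmp10, a matrix-degrading enzyme, was 0.475 to 2.38 FPKM in DSS, 0.376 to 0.780 FPKM in 4 DSS_ICB_Fp mice and 3.35 FPKM in DSS_ICB_Fp 4.

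Most macrophage genes were lower in mean in DSS_ICB_Fp. Lyz2, the lysozyme of macrophages and other myeloid cells, was 314, 387, 336, 236 and 226 FPKM in DSS and 173, 190, 204, 214 and 211 FPKM in DSS_ICB_Fp. The groups did not overlap, and the log2 difference was -0.57 ± 0.16 (SE, limma adjusted p = 0.923). Csf1r, the receptor on which macrophages depend for survival, was 7.81 to 11.1 and 5.80 to 8.0 FPKM, a log2 difference of -0.37 ± 0.12 (SE), and Itgam, an integrin chain of myeloid cells, 2.43 to 5.16 and 1.85 to 3.01 FPKM, a log2 difference of -0.50 ± 0.16 (SE). All 20 genes of the list were tested, 17 lay below 0 with a median of -0.36, 10 were lower at an unadjusted limma p under 0.05 (2.49% of all genes) and 0 passed. The count was 5 without DSS 2, DSS 3, DSS_ICB_Fp 2 or DSS_ICB_Fp 5 (1.74% to 2.93% of all genes) and 6 without DSS 1 (1.2%). Without DSS_ICB_Fp 4 the median was -0.37, with 11 lower (6.07% of all genes), 2 higher (4.13%) and 0 passed. The 3 members above 0 were Mertk (0.08), a receptor for engulfing dying cells, Cd14 (0.10), a co-receptor for bacterial lipopolysaccharide, and Cx3cr1 (0.29), a chemokine receptor of resident macrophages.

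Igsf6, an immunoglobulin-family gene of dendritic and myeloid cells, was 3.17, 2.64, 2.95, 2.18 and 3.25 FPKM in DSS and 1.66, 1.63, 1.97, 1.69 and 1.79 FPKM in DSS_ICB_Fp, with no overlap and a log2 difference of -0.48 ± 0.11 (SE, limma adjusted p = 0.923). Clec7a, which encodes the fungal glucan receptor dectin-1, was 4.01 to 7.45 and 1.83 to 4.40 FPKM, overlapping only at DSS 4. Ly86, a partner of a Toll-like receptor relative, and Ms4a4c, a membrane protein gene, did not overlap between the groups, with log2 differences of -0.53 ± 0.14 and -0.89 ± 0.22 (SE). The nearest Ly86 values, in DSS 5 and DSS_ICB_Fp 1, were 2.653 and 2.646 FPKM. Ccl22, a chemokine of mature dendritic cells that attracts regulatory T cells, was 1.22, 0.967, 1.32, 0.951 and 0.970 FPKM in DSS and 0.214, 0.0687, 0.620, 0.382 and 0.646 FPKM in DSS_ICB_Fp. It did not overlap, and its log2 difference was -0.60 ± 0.14 (SE), but it reached the filter only through the DSS_ICB mice. In the dendritic cell list 8 of 14 genes were tested, all 8 below 0 with a median of -0.32, 3 lower at an unadjusted limma p under 0.05 (2.49% of all genes) and 0 passed. The count was 1 without DSS 2, DSS 3, DSS_ICB_Fp 1 or DSS_ICB_Fp 4 (1.78% to 6.07% of all genes). Ccl22 is among the tested members, and counts without it are not given.

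B cell and follicle genes had the lowest median of all lists, -1.08, with all 16 genes tested and below 0, yet 0 reached an unadjusted limma p under 0.05 and 0 passed. The rank depends on the pseudocount: with 10 the median was -0.29, against -0.35 for MHC class II and -0.30 for cell cycle genes. Levels were far apart within each group. Cd79a, a chain of the B cell receptor complex, was 40.1, 24.7, 28.4, 16.3 and 1.19 FPKM in DSS and 0.987, 0.288, 6.25, 0.574 and 28.7 FPKM in DSS_ICB_Fp, a log2 difference of -2.08 ± 1.06 (SE). High and low mice occurred in both groups, with DSS 5 at the level of the low DSS_ICB_Fp mice and DSS_ICB_Fp 5 at that of the high DSS mice. Blk, a kinase of B cell receptor signalling, and Ccl19, a chemokine that draws lymphocytes into lymphoid tissue, were also low in DSS 5 and highest of their group in DSS_ICB_Fp 5. Ccl19 was listed at 0 in DSS 5, DSS_ICB_Fp 1 and DSS_ICB_Fp 2, and was 2.44 to 4.28 FPKM in the other DSS mice and 2.41 FPKM in DSS_ICB_Fp 5. Without DSS 5 the list median was -1.48 with 15 of 16 lower at an unadjusted limma p under 0.05 (3.19% of all genes), and without DSS_ICB_Fp 5 it was -1.41 with 14 lower (2.93%), while each of the other 8 fits that leave out 1 mouse had 0. How much lymphoid follicle each tissue piece held was not measured, and its part in the result was not tested.

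MHC class II genes, which present antigen to CD4 T cells, were also all below 0 (10 of 10), with a median of -0.63, 1 lower at an unadjusted limma p under 0.05 (2.49% of all genes) and 0 passed. The count was 7 without DSS 5 (3.19% of all genes), 9 without DSS_ICB_Fp 5 (2.93%), and 3 without DSS 4 (4.71%) or DSS_ICB_Fp 1 (1.79%). It was 0 without DSS 1, DSS 2, DSS 3, DSS_ICB_Fp 2 or DSS_ICB_Fp 4. H2-Aa was 64.3, 79.6, 72.0, 37.0 and 40.1 FPKM in DSS and 44.9, 24.2, 38.9, 24.1 and 49.2 FPKM in DSS_ICB_Fp, a log2 difference of -0.67 ± 0.27 (SE). H2-Ob, a modulator of peptide loading in B cells, had the pattern of the B cell genes, with 0.415 FPKM in DSS 5 and 4.14 FPKM in DSS_ICB_Fp 5 against 2.53 to 8.93 FPKM in the other DSS mice and 0.0892 to 0.996 FPKM in the other DSS_ICB_Fp mice. T cell genes had a median of -0.31 with all 11 tested below 0. Of these 1, Cd4, had an unadjusted limma p under 0.05 (log2 difference -0.38 ± 0.16, SE), against 2.49% of all genes. The T cell median was -0.17 without DSS_ICB_Fp 2 and -0.19 without DSS 3. Cytotoxic and NK genes had a median of -0.06 over 4 tested, which was 0.02 with quantile normalization and 0.07 without DSS_ICB_Fp 4. Type I interferon stimulated genes were all below 0 (24 of 24, median -0.26), but 0 had an unadjusted limma p under 0.05. Without DSS 3 only 17 of 24 lay below 0 and the median was -0.08. Isg15, a ubiquitin-like protein induced by interferon, ran from 3.48 to 33.5 FPKM in DSS and from 2.49 to 15 FPKM in DSS_ICB_Fp. Of the checkpoint genes, Cd274, which encodes PD-L1, was 2.84 ± 1.30 and 1.83 ± 0.587 FPKM, and Cd86, a ligand of CD28 and CTLA-4, 1.47 ± 0.522 and 0.799 ± 0.186 FPKM (SD, n = 5), while Pdcd1 and Ctla4 were below the filter and not tested.

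Plasma cell genes had a median of 0.18, with 7 of 12 tested above 0 and 0 at an unadjusted limma p under 0.05, and the median was -0.15 without DSS_ICB_Fp 5. Igha, the constant gene of IgA heavy chains, was 146, 101, 86.2, 36.0 and 128 FPKM in DSS and 211, 63.4, 144, 40.3 and 523 FPKM in DSS_ICB_Fp. The highest value, in DSS_ICB_Fp 5, was over 2 times the next, and the log2 difference was 0.55 with a 95% interval of -0.97 to 2.08. Pigr, the epithelial receptor that exports IgA, was 849 ± 175 and 1086 ± 216 FPKM (SD, n = 5). Igkv6-13, a variable segment of the kappa light chain, had the smallest unadjusted p of all named genes, at 0.900 to 2.29 FPKM in DSS and 0 to 0.684 FPKM in DSS_ICB_Fp with no overlap, a log2 difference of -1.09 ± 0.19 (SE, limma adjusted p = 0.923). Reads of such segments can be shared between close copies, so its level is uncertain, and it reached the filter only through the DSS_ICB mice.

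**Figure D3:**
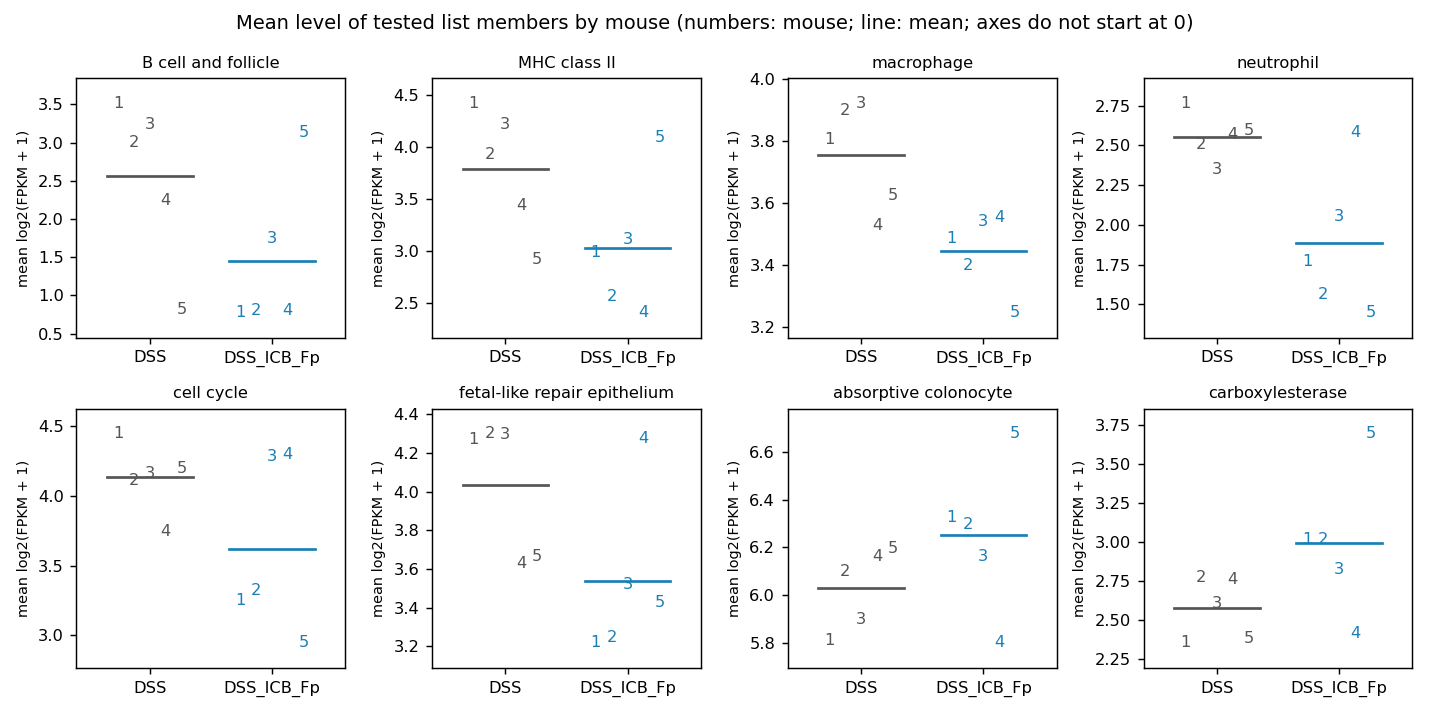
Mean log2(FPKM + 1) over the tested members of 8 lists in each mouse, with each digit at the value of the mouse of that number and a line at the group mean (DSS and DSS_ICB_Fp, 5 mice each; axes do not start at 0). DSS 5 is low and DSS_ICB_Fp 5 high for B cell and MHC class II genes, and DSS_ICB_Fp 4 lies at the DSS level for neutrophil, cell cycle and repair genes.

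Cell cycle genes were lower in mean in DSS_ICB_Fp, with wide differences between its mice. Mki67, a marker of dividing cells, was 35.8, 37.5, 30.9, 22.2 and 35.7 FPKM in DSS and 15.6, 16.9, 35.2, 25.5 and 9.90 FPKM in DSS_ICB_Fp, a log2 difference of -0.73 ± 0.28 (SE). Mice 3 and 4 of the DSS_ICB_Fp group lay within the DSS range and the other 3 below it. Top2a, the topoisomerase of dividing cells, followed the same order, with 20.2 to 35.9 FPKM in DSS and 9.90 to 32.9 FPKM in DSS_ICB_Fp. All 24 genes of the list were tested and below 0, with a median of -0.53, 4 lower at an unadjusted limma p under 0.05 (2.49% of all genes) and 0 passed. This count rested on single mice. It was 20 without DSS_ICB_Fp 4 (6.07% of all genes, median -0.73), 15 without DSS_ICB_Fp 3 (3.93%) and 10 without DSS 4 (4.71%). It was 1 without DSS 1, DSS 5 or DSS_ICB_Fp 2, and 0 without DSS 2, DSS_ICB_Fp 1 (median -0.40) or DSS_ICB_Fp 5 (median -0.35).

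Fetal-like repair genes had a median of -0.38, with all 16 tested genes below 0, 1 lower at an unadjusted limma p under 0.05 (2.49% of all genes) and 0 passed. Emp1, a membrane protein of repairing epithelium, was 56.0, 65.6, 16.0, 25.3 and 47.5 FPKM in DSS and 6.45, 4.24, 8.32, 75.2 and 4.11 FPKM in DSS_ICB_Fp. The other 4 DSS_ICB_Fp mice lay below all DSS mice, and DSS_ICB_Fp 4 lay above all of them, so that the log2 difference of -1.84 ± 0.76 (SE) became -2.54 without that mouse. Ly6d, a surface protein gene, was 2.88 to 20.7 FPKM in DSS and 0.947 to 13.0 FPKM in DSS_ICB_Fp, and its lowest DSS mouse was DSS 5 and its highest DSS_ICB_Fp mouse DSS_ICB_Fp 5, as for B cell genes. The list median was -0.61 without DSS_ICB_Fp 4, with 7 of 16 lower at an unadjusted limma p under 0.05 (6.07% of all genes) and 0 passed, while the fits without any 1 other mouse had 0 to 2 lower.

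DSS_ICB_Fp 4 also had the highest squamous keratin values of the 10 mice. Krt14 was 14.8 FPKM there against 0.154 to 3.74 FPKM in the rest of its group and 3.81 to 9.91 FPKM in DSS, and Krt13 was 8.01 FPKM against 0.163 to 1.83 and 0.990 to 5.77 FPKM. Of the 11 squamous genes 3 were tested, the summed level of all 11 was 7.11 to 17.8 FPKM in DSS and 2.10 to 25.3 FPKM in DSS_ICB_Fp, and Sprr3 was listed at 0 in all 10 mice. Their part in the differences of DSS_ICB_Fp 4 was not tested.

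Ascl2, a transcription factor that maintains the crypt stem cell state, had the smallest unadjusted p among the higher genes named. It was 3.32, 2.08, 2.56, 3.74 and 3.11 FPKM in DSS and 4.85, 5.51, 3.94, 4.92 and 5.37 FPKM in DSS_ICB_Fp, with no overlap and with DSS_ICB_Fp 4 among its group. The log2 difference was 0.59 ± 0.13 (SE, limma adjusted p = 0.923). Lgr5, a receptor that marks the same cells, was 0.767 ± 0.459 and 1.07 ± 0.379 FPKM (SD, n = 5), with overlapping groups. Of 18 stem cell and Wnt target genes 15 were tested and 12 lay above 0, with a median of 0.19 (0.06 without DSS 2, 0.11 without DSS_ICB_Fp 2). At an unadjusted limma p under 0.05, 1 was higher (1.9% of all genes) and 1 lower (2.49%), and 0 passed.

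Genes of mature colonocytes were mostly higher in mean in DSS_ICB_Fp. Car4, a carbonic anhydrase of surface colonocytes, was 142, 239, 210, 250 and 219 FPKM in DSS and 335, 296, 320, 201 and 451 FPKM in DSS_ICB_Fp, a log2 difference of 0.58 ± 0.21 (SE). Slc26a3, the chloride and bicarbonate exchanger of the colon surface, was 39.4, 59.2, 40.3, 52.2 and 69.5 FPKM in DSS and 69.0, 92.4, 86.2, 25.9 and 184 FPKM in DSS_ICB_Fp, a log2 difference of 0.58 ± 0.42 (SE), or 0.96 without DSS_ICB_Fp 4 and 0.27 without DSS_ICB_Fp 5. DSS_ICB_Fp 4 was the lowest of its group for both genes. Fabp2, an intracellular fatty acid carrier from the list of small intestine, bile acid and lipoprotein genes, did not overlap, at 5.05 to 8.36 FPKM in DSS and 8.62 to 9.76 FPKM in DSS_ICB_Fp, a log2 difference of 0.39 ± 0.12 (SE). Of 23 colonocyte genes tested 20 lay above 0, with a median of 0.22, 1 higher at an unadjusted limma p under 0.05 (1.9% of all genes) and 0 passed. Without DSS_ICB_Fp 4 the median was 0.33 with 7 higher at that level, against 4.13% of all genes. It was 0.12 without DSS_ICB_Fp 5 and 0.14 without DSS 2, with 1 higher in each (1.08% and 1.16% of all genes).

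Goblet cell and mucus genes had a median of 0.29, with 20 of 22 above 0, 1 higher at an unadjusted limma p under 0.05 (1.9% of all genes) and 0 passed. The median was 0.19 without DSS 1, and the count ran from 0 without DSS 2 (1.16% of all genes) to 7 without DSS 4 (3.12%). Atoh1, the transcription factor that starts the secretory fate, was 12.3, 9.18, 9.88, 21.1 and 16.1 FPKM in DSS and 23.4, 28.8, 16.8, 14.1 and 28.3 FPKM in DSS_ICB_Fp, a log2 difference of 0.67 ± 0.25 (SE). Muc2, the main mucin of the colon, was 133 to 284 FPKM in DSS and 240 to 300 FPKM in DSS_ICB_Fp (log2 difference 0.35 ± 0.19, SE), and Tff3, a peptide secreted with mucus, had 0.48 ± 0.22 (SE). Without DSS 1 these differences were 0.19 for Muc2 and 0.31 for Tff3. Epithelial junction genes lay close to 0, with a median of 0.06 over 22 genes. Tjp1, a scaffold of tight junctions, had a 95% interval of -0.33 to 0.16 and Ocln, a tight junction membrane protein, one of -0.44 to 0.42, so differences of 2-fold lie outside both.

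**Figure D4:**
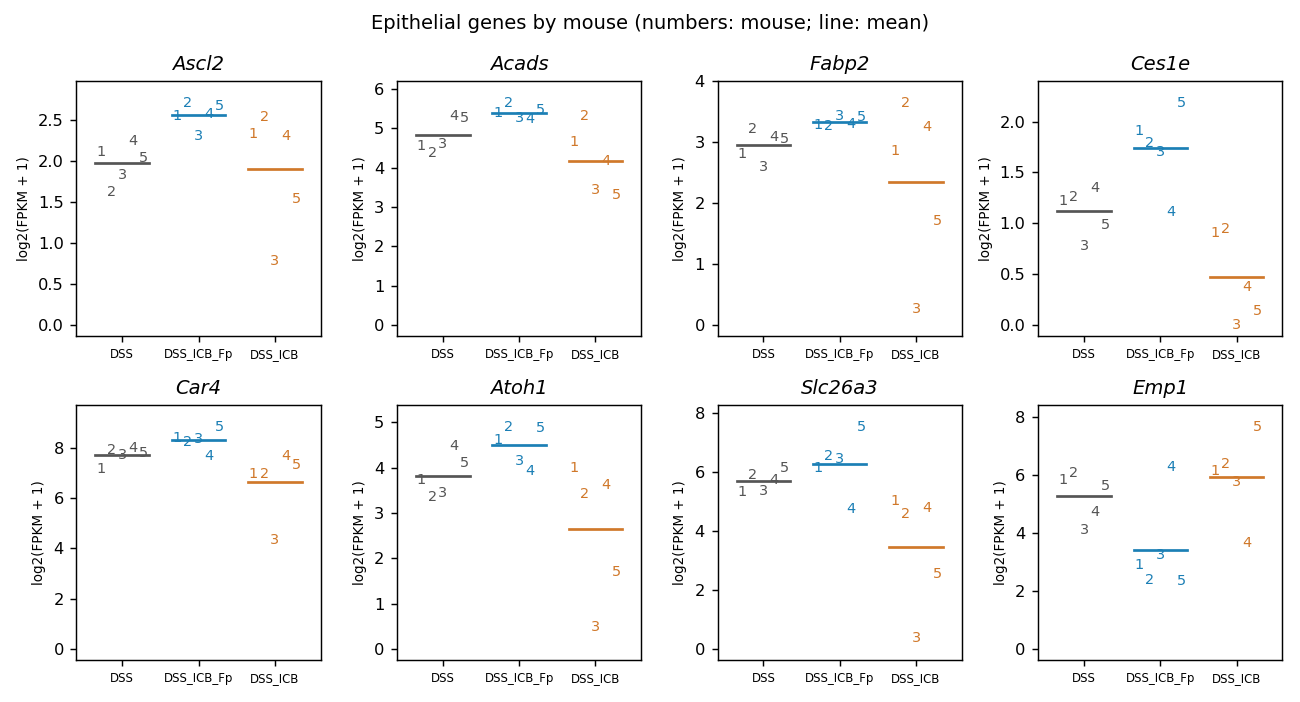
Expression of 8 epithelial genes as log2(FPKM + 1), with each digit at the value of the mouse of that number and a line at the group mean, for DSS, DSS_ICB_Fp and DSS_ICB (5 mice each). All DSS_ICB_Fp mice lie above all DSS mice for Ascl2 and Fabp2, and DSS_ICB_Fp 4 is the lowest of its group for Ces1e, Car4, Atoh1 and Slc26a3 and the highest for Emp1.

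Genes that process foreign and dietary compounds had some of the highest medians. Carboxylesterases, which split esters of drugs and lipids, had a median of 0.40, with 9 of 18 tested, all 9 above 0, 2 higher at an unadjusted limma p under 0.05 (1.9% of all genes) and 0 passed. Ces1e was 1.33, 1.39, 0.721, 1.55 and 0.985 FPKM in DSS and 2.74, 2.45, 2.26, 1.16 and 3.53 FPKM in DSS_ICB_Fp, a log2 difference of 0.62 ± 0.19 (SE), with only DSS_ICB_Fp 4 inside the DSS range. Ces1d was 3.88 to 7.55 and 6.48 to 26.1 FPKM, a log2 difference of 0.82 ± 0.30 (SE), or 0.51 without DSS_ICB_Fp 5. Cytochrome P450 and aryl hydrocarbon receptor genes had a median of 0.27 with 18 of 20 above 0, and conjugating enzymes 0.28 with 21 of 22 above 0. At an unadjusted limma p under 0.05, 1 and 2 of them were higher (1.9% of all genes) and 0 passed. Ugt1a1, which conjugates bilirubin, was 3.40, 2.84, 2.32, 7.87 and 7.43 FPKM in DSS and 20.7, 12.2, 10.2, 4.08 and 7.2 FPKM in DSS_ICB_Fp, a log2 difference of 1.0 ± 0.40 (SE). Cyp2c68, a P450 enzyme, was 33.5 ± 6.62 and 51.8 ± 15.7 FPKM (SD, n = 5). The medians without DSS_ICB_Fp 4 were 0.65 for carboxylesterase, 0.46 for P450 and 0.34 for conjugating genes. Those of carboxylesterase and P450 genes were 0.21 and 0.14 without DSS_ICB_Fp 5, and that of conjugating genes was 0.15 without DSS 3. The Ces1, Ugt1a, Cyp2c and Cyp2d families hold close copies or shared exons, so the split of reads within each is uncertain.

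Genes for butyrate uptake and use had a median of 0.09 over 17 tested, with 11 above 0, 1 higher at an unadjusted limma p under 0.05 (1.9% of all genes) and 0 passed. Slc5a8, a sodium-coupled carrier of short-chain fatty acids, was 29.1, 54.8, 30.3, 57.4 and 52.3 FPKM in DSS and 70.7, 73.6, 55.3, 24.8 and 73.8 FPKM in DSS_ICB_Fp, a log2 difference of 0.37 ± 0.31 (SE), or 0.65 without DSS_ICB_Fp 4 and 0.23 without DSS 1. Slc16a1, a monocarboxylate carrier, was 67.0 ± 10.8 and 82.0 ± 19.9 FPKM (SD, n = 5), and the butyrate receptor gene Ffar2 had a 95% interval of -0.37 to 0.31. Acads, the enzyme that starts the oxidation of short-chain fatty acids, was 22.5, 19.9, 23.5, 38.8 and 37.4 FPKM in DSS and 41.2, 48.7, 37.3, 36.7 and 43.2 FPKM in DSS_ICB_Fp, a log2 difference of 0.57 ± 0.19 (SE). DSS 4 and DSS 5 lay near the DSS_ICB_Fp mice for this gene. Cpt2, an enzyme of long-chain fatty acid uptake into mitochondria, had 0.30 ± 0.10 (SE). Nuclear genes of oxidative phosphorylation were all above 0 by small amounts (25 of 25, median 0.11), with 1 at an unadjusted limma p under 0.05 against 1.9% of all genes. The 13 mitochondrially encoded genes were all below 0 (median -0.06, 0 at that level), though their median was 0.05 without DSS 2.

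**Figure D5:**
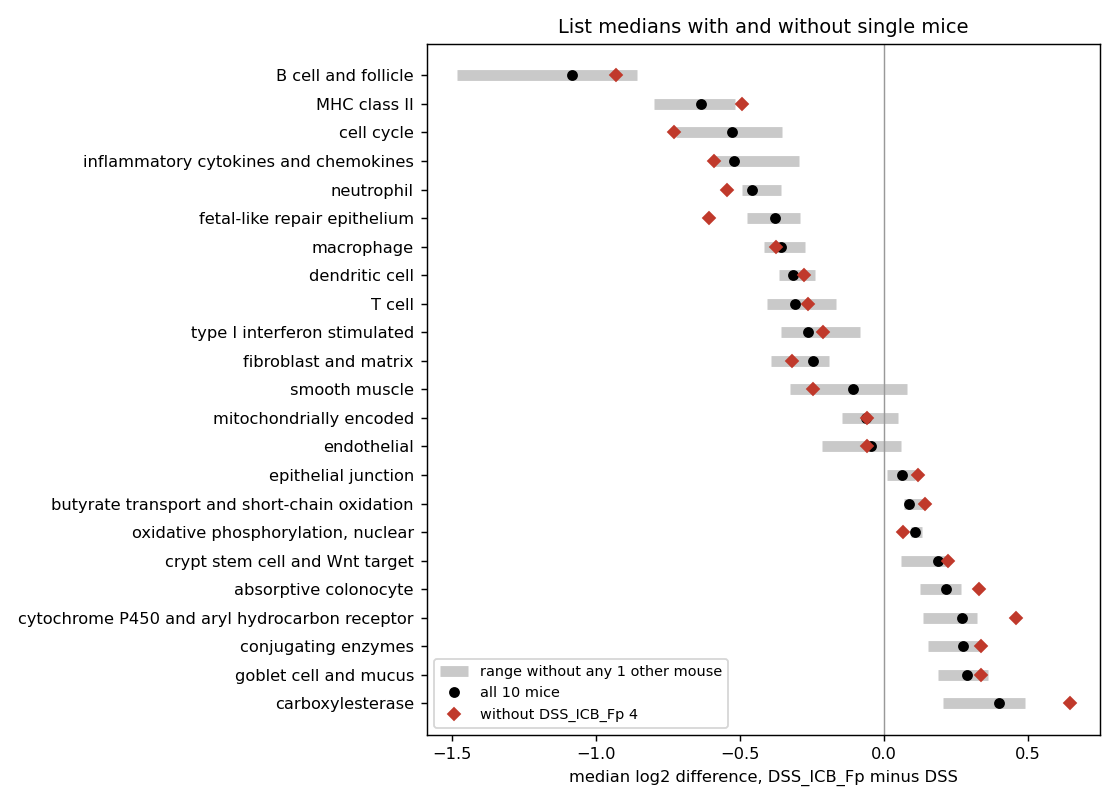
Median log2 difference of each list with all 10 mice (black), without DSS_ICB_Fp 4 (red) and over the fits that leave out any 1 other mouse (grey range), DSS_ICB_Fp minus DSS. Without DSS_ICB_Fp 4 the medians of repair, P450 and carboxylesterase genes move further from 0, to -0.61, 0.46 and 0.65, while the macrophage median is -0.37 against -0.36 with all mice.

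Stromal genes and markers of neighbouring tissue varied by mouse. The median of fibroblast and matrix genes was -0.25, with 22 of 23 below 0, 2 lower at an unadjusted limma p under 0.05 (2.49% of all genes) and 0 passed. The count was 8 without DSS_ICB_Fp 2 (1.74% of all genes, median -0.39), 7 without DSS 5 (3.19%) and 5 without DSS_ICB_Fp 4 (6.07%). It was 1 without DSS 1, DSS 2, DSS 3, DSS_ICB_Fp 1 or DSS_ICB_Fp 3 (1.2% to 3.93%). Col6a3, a collagen VI chain, was 17.6 ± 3.88 and 12.5 ± 3.08 FPKM (SD, n = 5). Smooth muscle genes had a median of -0.11, which was 0.08 without DSS_ICB_Fp 3 and 0.04 without DSS 3. The summed level of 11 adipose genes was 7.65 to 57.9 FPKM in DSS and 8.0 to 83.3 FPKM in DSS_ICB_Fp, with DSS_ICB_Fp 2 and DSS_ICB_Fp 5 both at 83.3, and that of haemoglobin and other erythroid genes 56.7 to 352 and 26.6 to 245 FPKM. Pancreatic enzyme genes summed to at most 0.703 FPKM in any of the 10 mice. Among the Hox genes that mark position along the gut, Hoxd10 was 4.80 to 10.3 FPKM in DSS and 6.37 to 17.6 FPKM in DSS_ICB_Fp and Hoxb13 was 79.4 to 134 and 121 to 163 FPKM, log2 differences of 0.63 ± 0.27 and 0.36 ± 0.15 (SE). Of 16 Hox genes tested 13 lay above 0, with a median of 0.13, which was 0.05 without DSS 2. The lowest member had a log2 difference of -0.38. At an unadjusted limma p under 0.05, 2 were higher (1.9% of all genes) and 1 lower (2.49%), and 0 passed. Whether the pieces came from the same stretch of colon is not given, and the part of position in the epithelial values was not tested.

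Outside the lists, the higher genes with the smallest unadjusted p were of mixed kinds. Ttr, a carrier of thyroid hormone and retinol, was 23.2, 28.5, 14.0, 33.0 and 19.0 FPKM in DSS and 41.0, 49.0, 36.2, 28.6 and 52.4 FPKM in DSS_ICB_Fp, a log2 difference of 0.82 ± 0.23 (SE). Bex4 and Lrfn3 did not overlap, with log2 differences of 0.76 ± 0.19 and 0.53 ± 0.15 (SE). Tnfsf13os (0.58 ± 0.13) lies antisense to another gene, and whether the libraries kept strand is not stated, so its reads cannot be told apart from those of its partner. Lpp, a protein of cell adhesions, was 1.74 to 2.25 FPKM in DSS and 1.69, 15.4, 9.83, 12 and 11.2 FPKM in DSS_ICB_Fp. Its log2 difference of 1.68 ± 0.41 (SE) was 2.14 without DSS_ICB_Fp 1, the one low mouse, with a limma adjusted p = 7.5e-05. That mouse stood apart in Lpp itself, so this p is no independent test. Among lower genes, Tnpo3, a nuclear import factor, was 6.66 to 8.18 and 4.42 to 5.87 FPKM without overlap, and Cdc14b, a phosphatase, 1.90 to 3.22 and 0.500 to 2.31 FPKM.

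The DSS_ICB mice had wider spreads, with a median SD per gene of 0.37 on the log2 scale against 0.22 in DSS and 0.23 in DSS_ICB_Fp. DSS_ICB 3 was unlike the other DSS_ICB mice. Mitochondrially encoded genes held 33.2% of its FPKM, against 9.39% to 20.5% in the others. Its colonocyte genes summed to 370 FPKM, against 2405 to 2828, and its smooth muscle genes to 20029 FPKM, against 1524 to 5077. The part of this mouse in the wider spread and in the DSS_ICB ranges was not tested. Both comparisons with DSS use the same 5 DSS mice, so values are set side by side only, with no test against DSS_ICB. S100a8 had a median of 64.5 FPKM (35.3 to 593) in DSS_ICB, above 15.9 FPKM, the highest DSS value. Il1b had 39.3 FPKM (19.9 to 211), Cxcl2 15.2 FPKM (4.80 to 112) and Retnlg 14.4 FPKM (7.68 to 120). How many of all genes tested were as high in DSS_ICB was not counted. Cxcl2 reached the filter of 1 FPKM in 5 libraries only through the DSS_ICB mice. Lyz2 (287 FPKM, 114 to 629) and Mki67 (33.0 FPKM, 4.54 to 45.9) overlapped with both groups in DSS_ICB. Csf3r was 2.93 to 29.2 FPKM in DSS_ICB.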

How the data were processed

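RNA from colon tissue of 15 mice was sequenced, and 10 libraries (5 DSS, 5 DSS_ICB_Fp) were compared. Per the submitters' processing notes, the tools named are FastQC, STAR 2.5, Cuffnorm and DESeq, with build mm10. The authors deposited FPKM values, 1 per gene and library, and whether a further scaling was applied is not given in the sources used here. Of 55335 Ensembl IDs, 55154 matched a symbol in GENCODE M21 (GRCm38, the assembly behind mm10).

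The depth is not given. It was estimated from the smallest steps of FPKM times length in 5126 genes with 1 transcript of at least 2000 bases, which gave 16.7 to 24.4 M fragments in the 10 libraries (group means 18.6 ± 2.00 for DSS and 19.4 ± 3.10 M for DSS_ICB_Fp, SD). Of low values within the first few steps, between 44.8% and 56.8% were whole multiples of a step (tolerance 0.03 log2). With shifted steps 2.5% to 5.1% were. The step was chosen as that with the most values at 1 step, so part of this gap is built in. Whole reads were not recovered, and count tests were not used.

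Values were taken as log2(FPKM + 1). The linear model (limma 3.58.1, R 4.3.3, trend and robust options on) was fitted to the 2 groups alone on genes with at least 1 FPKM in at least 5 of 15 libraries. Tests were two-sided with Benjamini-Hochberg adjustment over all 14385 genes, and intervals are 95%. The procedure was tested on simulated data. Single values over mice were compared by exact permutation over 252 arrangements. The comparison, the 48 gene lists (896 entries, 893 matched, all but Ctgf, Cyr61 and Ahsp) and the rule for named genes were chosen with earlier results of these data known, so no list was tested. By the rule, 12 genes per direction were named by smallest p (without predicted models and genes under 1 FPKM in both means), then up to 3 genes per list by smallest p on the side of the list's median, then 27 genes of interest. Camp, Cd14, Cd177, Cd3e, Cd79a, Cx3cr1, Elane, Epcam, Ly6g, Mertk, Mpo, Myh11, Ngp and Sprr3 were named after their values were seen or as tissue markers. Alternatives were other scalings, pseudocounts of 0.1 and 10, other filters, all 15 libraries in the fit, plain limma, quality weights, rescaling without mitochondrial genes, and leaving out each of the 10 libraries. Promoter sequences are from RefSeq (GRCm38.p6). Of the genes so chosen, 1 is left out of the text and not reported here.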

Additional observations from a re-analysis of the deposited data

Results flagged for a closer look

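In 20 of 356 groups of 5 values (178 named genes in DSS and in DSS_ICB_Fp), 1 mouse lay so far from the rest of its group that the gap made up most of the group's range (Dixon's test at the 95% level). Chance alone flags about 1 in 20 groups. Of the 20, 8 were values of DSS_ICB_Fp 4, and the part of any technical or biological source in them was not tested.

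Genes of inflammation and repair were high in DSS_ICB_Fp 4. S100a8 was 9.30 FPKM there against at most 0.812 FPKM in the rest of the group, Cxcl2 1.48 FPKM against 0.0262 to 0.204, Mmp10 3.35 FPKM against 0.376 to 0.780, Emp1 75.2 FPKM against 4.11 to 8.32, and Il1rl1, the receptor of interleukin 33, 4.63 FPKM against 0.184 to 0.399. Genes of short-chain fatty acid use were low there: Slc5a8 was 24.8 FPKM against 55.3 to 73.8, and Acss2, which activates acetate, 10.8 FPKM against 15.8 to 18.2. The mitochondrially encoded mt-Nd4l was 1631 FPKM there against 2469 to 2796, and in DSS 2 it was 4273 FPKM against 2259 to 2542.

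Of the remaining DSS_ICB_Fp values, Lpp was 1.69 FPKM in DSS_ICB_Fp 1 against 9.83 to 15.4. Egr2 was 0.801 FPKM in DSS_ICB_Fp 3 against 0.159 to 0.313. In DSS_ICB_Fp 5, Ciita, the activator of MHC class II genes, was 2.88 FPKM against 0.171 to 0.576, and Per2 was 16.3 FPKM against 3.95 to 6.02.

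In the DSS group, DSS 5 was low for 2 genes of B cells and lymphoid tissue, with Ccl19 at 0 against 2.44 to 4.28 FPKM and Fcrla at 0.190 FPKM against 2.14 to 3.47. DSS 3 had 2.31 FPKM of Angptl4 against 0.303 to 0.448, 0.446 FPKM of Hcar2, a butyrate and niacin receptor, against 0.612 to 0.651, and 19.5 FPKM of Msmo1, an enzyme of cholesterol synthesis, against 27.4 to 30.9. Il11 was 1.22 FPKM in DSS 2 against 0.221 to 0.391, and Tlr2 was 4.69 FPKM in DSS 1 against 6.28 to 6.97.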

How the results depend on the processing

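Of 22 alternatives, 12 kept all 10 mice and each gave 0 genes past the adjusted limma threshold. Leaving out 1 mouse gave 0 to 1 genes, with 1 without DSS_ICB_Fp 1 (Lpp, higher) and 1 without DSS_ICB_Fp 4 (S100a8, lower), and the smallest limma adjusted p ran from 7.5e-05 to 0.9996 over those fits. Genes at an unadjusted limma p under 0.05 were 632, and 389 without DSS 1, 409 without DSS_ICB_Fp 2, 1126 without DSS 4 and 1467 without DSS_ICB_Fp 4. They were 1143 with sample quality weights, 1161 with no filter, 326 with the 5 FPKM filter and 203 with all 15 libraries in the fit. The count of genes whose groups do not overlap, 56, was 26 with the 5 FPKM filter and 117 with no filter, where fewer and more genes were looked at. Over all alternatives, list medians moved by less than 1 SD of the mice in 1018 cases and by more in 13. Among the 13 was the neutrophil median, at -1.02 with a pseudocount of 0.1 and -0.11 with 10. Some list medians changed sign, as for mesothelium (7 of 22 alternatives), glycolysis and hypoxia (6), enteroendocrine (5) and plasma cell genes (3). Those of neutrophil, macrophage and cell cycle genes kept their sign in all 22. Values of named genes kept their direction and the outcome of the test in 3721 cases, had another sign in 37 with no call, and newly passed in 2. No paired analysis was possible because the replicate numbers were given in accession order and match no mice between groups. Precision is limited by 5 mice per group, with a median half-width of the 95% interval of 0.32 log2, and by an FPKM table that does not state its depth.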

Other observations

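Per2, a core repressor of the circadian clock, was 2.39 to 6.17 FPKM in DSS and 3.95 to 6.02 FPKM in 4 DSS_ICB_Fp mice, and 16.3 FPKM in DSS_ICB_Fp 5. Cry2, another clock repressor, was also highest in that mouse, at 7.33 FPKM against 2.23 to 4.47 FPKM in the rest of its group and 2.20 to 3.84 FPKM in DSS. The list of 14 tested clock genes had a median log2 difference of 0.14, with 11 above 0 and 0 passed, and the median was 0.06 without DSS 2 and 0.07 without DSS_ICB_Fp 5. The hour at which tissue was taken is not given in the labels, and its part was not tested. DSS_ICB_Fp 5 was also highest for Slc26a3 (184 FPKM), Igha (523 FPKM) and Ces1d (26.1 FPKM).

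Enteroendocrine and heat shock genes had medians near 0. Pyy, a gut hormone, was 53.9 to 125 FPKM in DSS and 76.2 to 119 FPKM in DSS_ICB_Fp, and 11 tested enteroendocrine genes had a median of 0.06. Heat shock and unfolded protein genes had a median of -0.05 over 22, with Hsp90aa1, a cytosolic chaperone, at 49.5 to 96.7 FPKM in DSS and 36.0 to 72.6 FPKM in DSS_ICB_Fp.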
